A study of Mus musculus with 9 samples.

Results

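The 49 genes described here encode proteins of the cytosolic ribosome. They were chosen by gene symbol alone, as every measured gene named Rpl or Rps with a number, plus Rplp0, Rplp2 and Rpsa, without the Rps6k kinases. They make up 49 of the 18193 genes of the array with a probe set of their own, 23 from the small and 26 from the large subunit, and each is represented by its probe set of highest mean signal. RNA came from the tracheal epithelium of mice hemizygous for a KRT5-GFP transgene, in which green fluorescent protein (GFP) is made under the keratin 5 promoter, so all 3 populations carry the transgene. After enzymatic digestion and dissection the cells were sorted on GFP and on binding of GSI-A3B isolectin. The GFP+ gate held KRT5-GFP+, lectin+ cells, the lectin-only gate held KRT5-GFP-, lectin+ cells, and the columnar gate held KRT5-GFP-, lectin- columnar epithelium; both lectin-binding gates are labelled basal cells. Each gate had 3 biological replicates, so 9 Affymetrix arrays were compared. The reporter shows activity of a promoter fragment and not keratin 5 protein, and the age of the mice and any pooling of animals are not given in the sources used here.

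A ribosome is built in the nucleolus from ribosomal RNA and one copy of most ribosomal proteins, so the genes of these proteins are made in step in growing cells. Their messenger RNAs usually begin with a run of pyrimidines, the 5′ terminal oligopyrimidine (TOP) tract, through which the growth-sensing kinase complex mTORC1 controls how strongly they are translated, while Myc raises transcription of many of them. Basal cells are the stem cells of the tracheal epithelium and renew the secretory and ciliated cells of the columnar layer.

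The start of the transcript is shown for 8 members on which the comparisons below turn, because a TOP tract, where present, begins at the transcript start. Each window holds the 20 bases before and the first 10 bases of the RefSeq transcript on its own strand (GRCm38.p6, 5′ to 3′), and capitals mark the longest pyrimidine run where it has at least 7 bases. The windows lie at chr4:86857358-86857387 (- strand) for Rps6, chr2:32961692-32961721 (+ strand) for Rpl12, chr9:44407694-44407723 (+ strand) for Rps25, chr9:120571497-120571526 (+ strand) for Rpl14, chr3:28805488-28805517 (+ strand) for Rpl22l1, chr17:46782647-46782676 (- strand) for Rpl7l1, chr5:115559447-115559476 (+ strand) for Rplp0 and chr9:120127746-120127775 (+ strand) for Rpsa.
Rps6: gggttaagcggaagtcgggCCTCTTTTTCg
Rpl12: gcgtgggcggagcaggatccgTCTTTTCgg
Rps25: TCCTTTTTTTCCgacatcttagcgaggctg
Rpl14: cggcagggcgggCCCTCTCTCTTCTCgctg
Rpl22l1: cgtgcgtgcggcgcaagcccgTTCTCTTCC
Rpl7l1: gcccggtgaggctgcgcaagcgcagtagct
Rplp0: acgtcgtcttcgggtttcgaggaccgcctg
Rpsa: tggctgtgggttatttaaggacgtcatttc

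Of these 8 windows, those of Rpl7l1, Rplp0 and Rpsa held no run of 7 pyrimidines, and the run of Rps25 lay at the far end of its window, 20 bases before the annotated start. A start was found in the RefSeq promoter table for 43 of the 49 members, and 24 of the 43 (55.8%) had such a run in this window, against 22.0% of 14452 genes and 14 of 67 mitochondrial ribosomal protein genes (20.9%). The search used C or T in a row on the transcribed strand, at 1 or more annotated starts per gene. It did not require the run to begin at the start, so a match is not in itself a TOP tract. The run lay wholly before the annotated start for Rpl10a, Rpl19, Rpl39, Rpl39l, Rpl4, Rps15, Rps25 and Rps27l. The E-box CACGTG, a binding motif of Myc, was found on either strand in the 300 bases around the start of 4 of 43 members (9.30%), against 10.2% of all genes. A match describes letters only and says nothing of binding, and annotated starts can differ from those used in these cells.

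The sort separated the populations by marker genes, whereas ribosomal protein genes were close to even across it. Of 14 basal cell markers, 13 were higher in the GFP+ than in the columnar gate, 12 of 14 ciliated markers and 9 of 14 secretory markers were lower, and 0 moved the other way (limma, adjusted p under 0.05). Krt5, whose promoter drives the reporter, had a log2 signal of 13.44, 13.44 and 13.42 on the GFP+ arrays, 12.91, 13.02 and 12.72 on the lectin-only arrays and 6.71, 8.27 and 8.88 on the columnar arrays. Leukocyte markers were highest in the lectin-only gate: the mean log2 signal of 23 leukocyte markers was 5.94 to 7.27 in the GFP+ gate, 9.15 to 9.84 in the lectin-only gate and 5.17 to 5.81 in the columnar gate. Fibroblast, endothelial and erythroid markers had 5 of 8, 0 of 8 and 0 of 3 called in GFP+ minus columnar, and 2 of 8, 3 of 8 and 0 of 3 in lectin-only minus columnar. One array stood apart, replicate 3 of the lectin-only gate, where 73.1% of probe sets lay above background and the median signal was 5.44, against 65.4% to 66.4% and 4.91 to 5.16 on the other 8 arrays.

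Most ribosomal protein genes were bright in every gate. Of the 49, 37 had a mean log2 signal over 12, which 612 of the 18193 genes reached, and 45 lay above the background level of 3.55 on all 9 arrays. The median signal of the 49 genes was 13.38, 13.31 and 13.18 on the GFP+ arrays, 13.16, 13.21 and 13.01 on the lectin-only arrays and 13.12, 13.08 and 13.10 on the columnar arrays. The highest value anywhere in the table was 14.96, so most members lay in the top range of the scale. Signals of different probe sets do not rank genes by abundance, and in sorted populations fewer cells of a type and less RNA per cell cannot be told apart.

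The remaining 12 members were dimmer. Rpl12, Rpl14, Rpl39, Rpl7l1, Rps25, Rps27, Rps4l and Rps6 lay between background and a mean of 12. Rpl37, Rpl39l, Rpl3l and Rps16 were at or under background on at least 1 array, and Rpl3l and Rps16 on all 9. For Rpl3l, a paralogue of Rpl3 known from heart and skeletal muscle, that was the signal of its only probe set. Rps16, a small subunit protein of every ribosome, was read here by a probe set at 1.88 to 2.91, so its level was not measured by it.

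**Figure D1:**
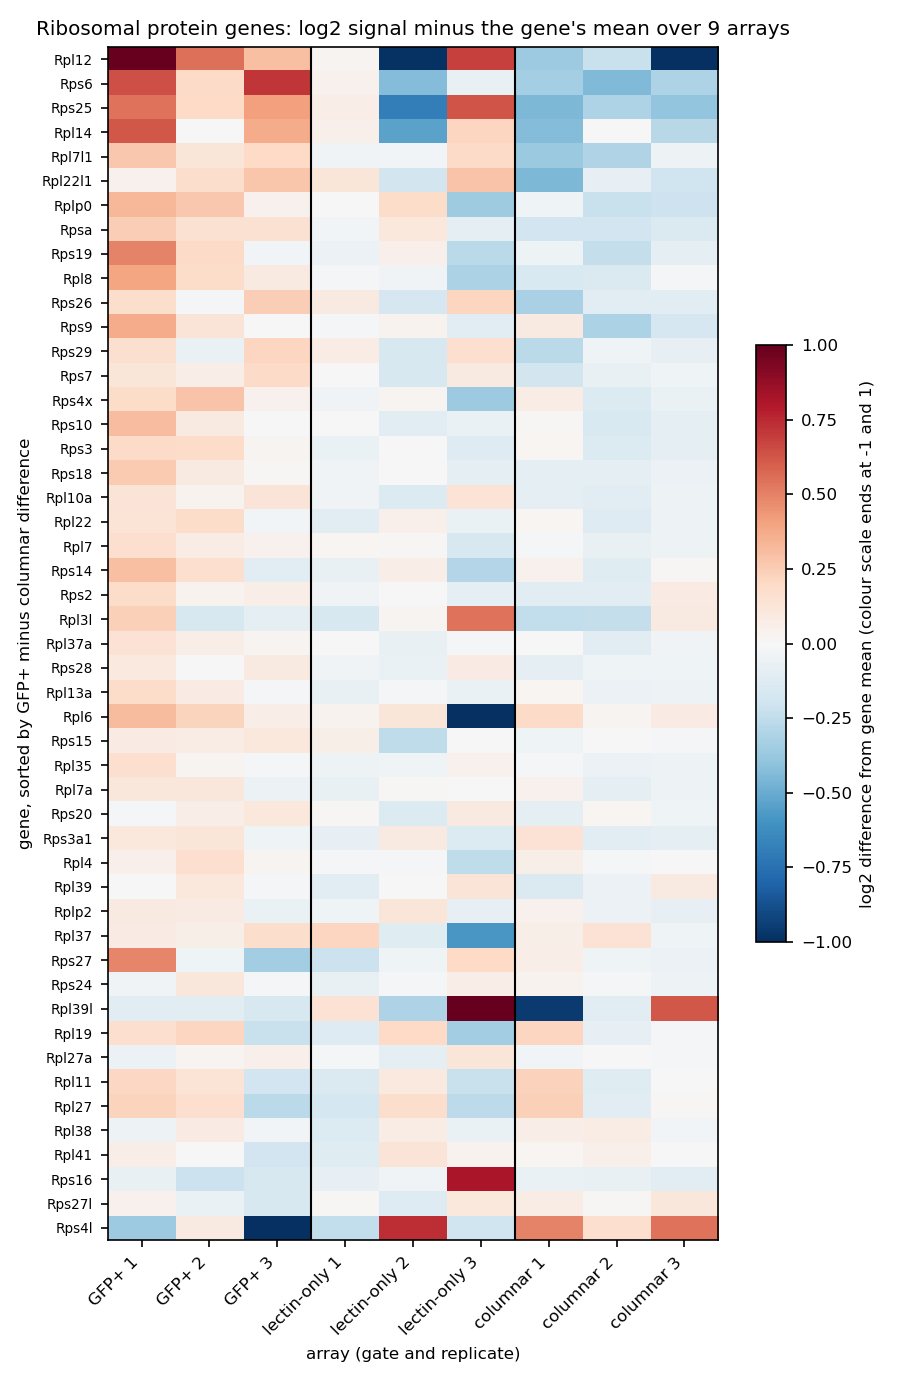
Log2 signal of the 49 ribosomal protein genes (rows, ordered by the GFP+ minus columnar difference) on 9 arrays (columns, by gate and replicate), as the difference from each gene's mean; red is above and blue below it. Most rows are pale in every gate, with a faint shift to red in the GFP+ columns, and the strong colours sit in dimmer genes such as Rpl12, Rps25, Rpl39l and Rps4l and in Rpl6 on lectin-only replicate 3.

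The members varied little. Their median SD within a gate was 0.12 on the log2 scale, against 0.31 over all genes and 0.15 over genes with a mean over 12. The signal spanned less than 1 on the log2 scale over all 9 arrays in 41 of 49 members, against 43.0% of all genes. Rpl35 of the large subunit, an example chosen after its values were seen, read 14.13, 13.99 and 13.95 on the GFP+ arrays, 13.91, 13.92 and 14.00 on the lectin-only arrays and 13.95, 13.90 and 13.91 on the columnar arrays. The wider ones were Rpl12, Rpl14, Rpl39l, Rpl6, Rps16, Rps25, Rps4l and Rps6. Rpl6 was low on 1 array, at 12.23 on lectin-only replicate 3 and 13.32 to 13.62 on the other 8.

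GFP+ cells were compared with the columnar gate to ask whether ribosomal protein messages differ between reporter-marked basal cells and the columnar layer. Of the 49 members, 1 rose, Rps6, and 0 fell, while 14.1% of all genes were called (7.32% higher and 6.83% lower; limma, adjusted p under 0.05). Of the 37 members with a mean over 12, 0 passed, against 9.31% of the 612 genes of that signal range. No member passed with an absolute log2 difference of 1 or more, which 11.2% of all genes did. At an unadjusted p under 0.05 there were 7 members, 6 higher and 1 lower, against 25.1% of all genes. With limma's trended and robust variance 2 members passed, against 15.2% of all genes. In that fit 16 members had an unadjusted p under 0.05, for which no share of all genes is given. With any 1 array left out 0 to 3 members passed and 1 to 10 had an unadjusted p under 0.05. Without lectin-only replicate 2 the members that passed were 3, and without GFP+ replicate 1 or 3 or columnar replicate 2 there were 0.

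The members' differences were small and mostly positive. The mean was higher in the GFP+ than in the columnar gate for 43 of 49 members, against 46.2% of all genes, and the median log2 difference was 0.13 (quartiles 0.05 and 0.24), against -0.04 over all genes. All 3 GFP+ arrays lay above all 3 columnar arrays in 19 members, against 15.8% of all genes, and below them in 1, Rps4l, against 17.8%. Among the 37 bright members the median difference was also 0.13, and 15 had GFP+ arrays wholly above the columnar arrays, against a median of -0.02 and 16.7% over the 612 genes of that signal range. The 95% interval of the difference lay within 1 log2 unit either side of 0 for 44 of 49 members, against 60.6% of all genes. It did so for all 37 bright members, against 88.2% of the 612 genes of that signal range.

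The size of this offset depended on the scaling of the arrays. With each array centred on its own median the members' median was 0.05, against -0.12 over all genes. Of the 49, 33 were positive, against 37.9% of all genes. GFP+ arrays lay wholly above the columnar arrays in 7 members, close to the 12.6% of all genes, and wholly below in 2. Centring on the 90th percentile gave 0.11 and 40 positive members, against 43.9% of all genes positive. A further quantile normalization gave 0.13 and 43, against 47.4%. Centring shifts the members and all genes alike, so it leaves the distance between their medians as it was. After quantile normalization the median over all genes was -0.02.

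**Figure D2:**
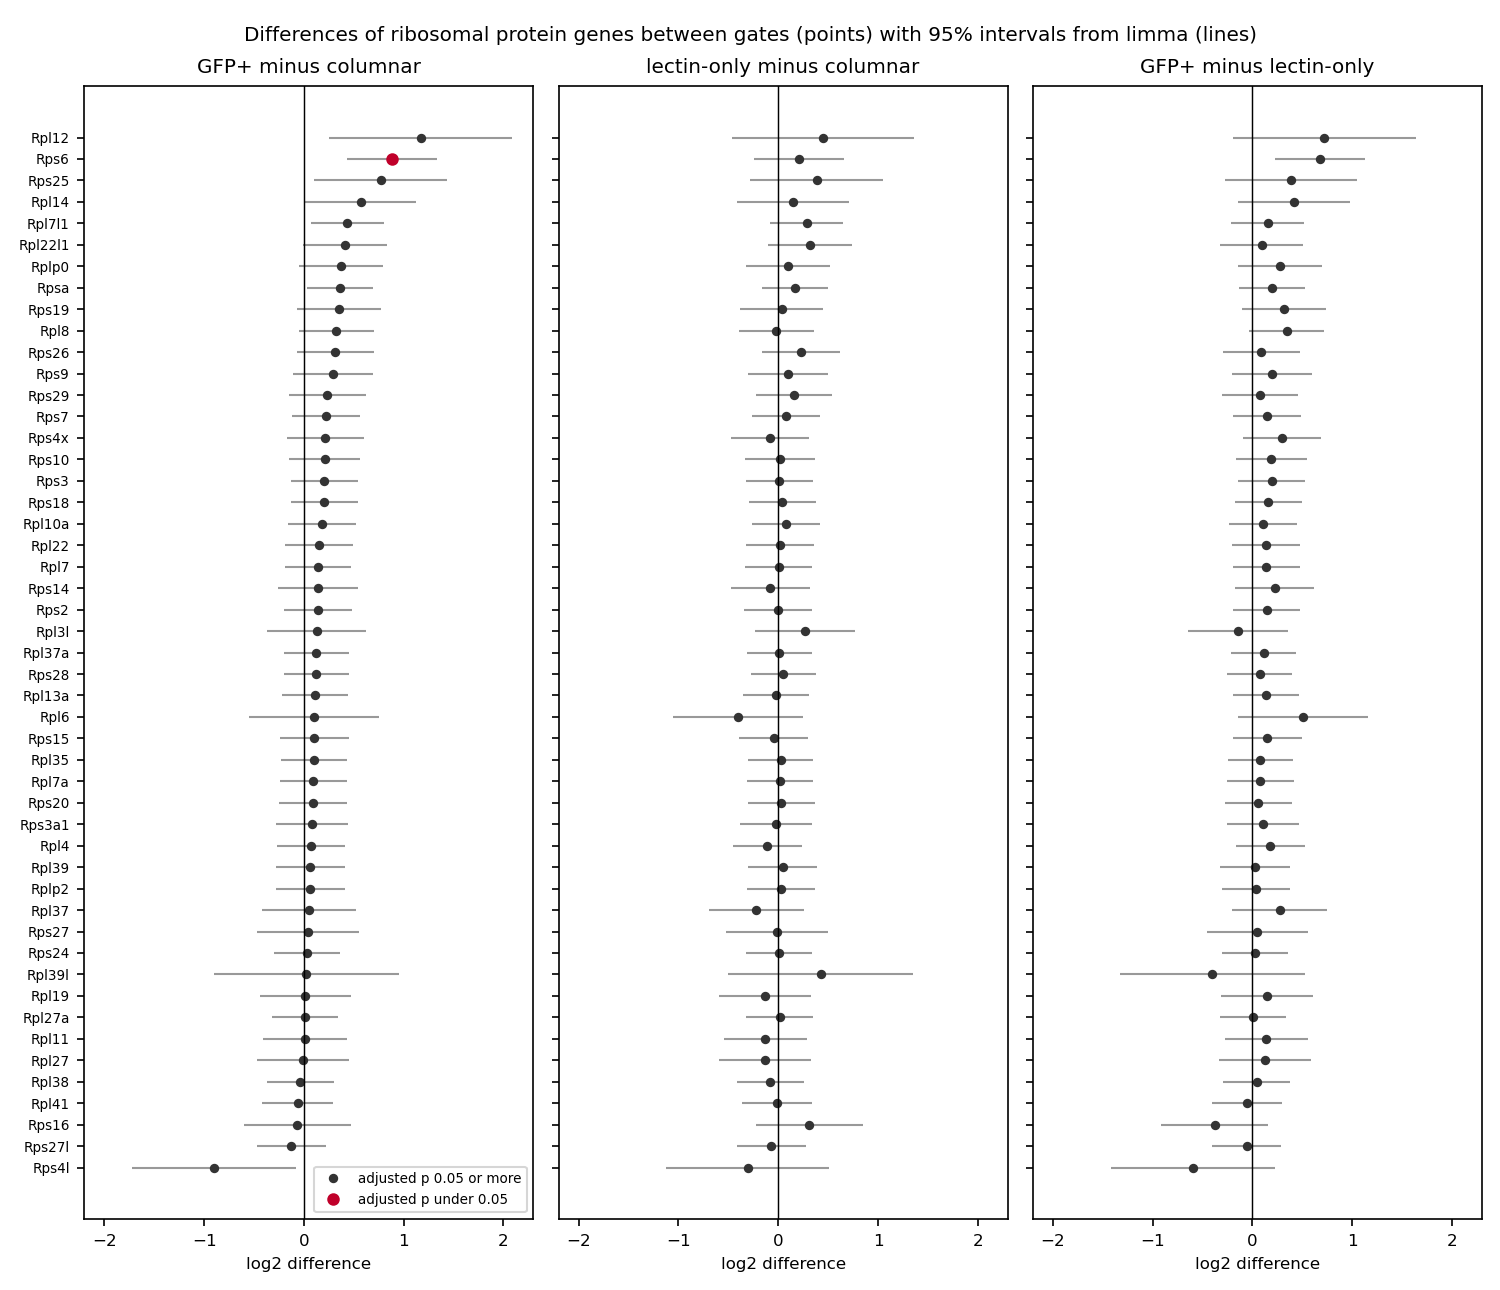
Log2 differences of the 49 members (rows) between gates, with 95% intervals, in 3 panels; red marks an adjusted p under 0.05. Rps6 in GFP+ minus columnar is the only red point, and most intervals cross 0.

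Rps6 encodes the small subunit protein that S6 kinases phosphorylate when mTORC1 is active. Its log2 signal was 11.18, 10.73 and 11.25 on the GFP+ arrays, 10.58, 10.10 and 10.46 on the lectin-only arrays and 10.20, 10.10 and 10.23 on the columnar arrays. The GFP+ arrays lay wholly above those of both other gates, and the lectin-only and columnar arrays overlapped. The difference between the GFP+ and columnar gates was 0.88 ± 0.20 (SE), or 1.84-fold (95% interval 0.43 to 1.33 on the log2 scale, limma adjusted p = 0.0165). Against the lectin-only gate it was 0.67 ± 0.20 (adjusted p = 0.112), which did not pass. The call against the columnar gate was lost without GFP+ replicate 1 (0.82, adjusted p = 0.0593), without GFP+ replicate 3 (0.78, adjusted p = 0.0703) and without columnar replicate 2 (0.84, adjusted p = 0.0594).

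Other probe sets that carry the Rps6 symbol did not show this difference. Its second probe set was under background on all 9 arrays. A further 9 probe sets name Rps6 together with other symbols and had mean signals of 4.50 to 14.06; their GFP+ minus columnar differences ran from -0.52 to 0.07, and 0 of the 9 passed. The rise of Rps6 thus rests on 1 probe set.

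Members of middle signal held the largest differences. Rpl12, a protein at the base of the large subunit stalk, had log2 signals of 8.41, 7.92 and 7.67 on the GFP+ arrays, 7.40, 6.38 and 8.05 on the lectin-only arrays and 7.0, 7.15 and 6.34 on the columnar arrays. The GFP+ arrays lay above the columnar arrays and overlapped with the lectin-only arrays, and the difference of 1.17 ± 0.41 from the columnar gate did not pass (adjusted p = 0.0969). Rps25, a small subunit protein that some viral internal ribosome entry sites require, had 9.47, 9.12 and 9.34 on the GFP+ arrays, 8.99, 8.23 and 9.56 on the lectin-only arrays and 8.48, 8.62 and 8.53 on the columnar arrays. Its GFP+ arrays were likewise above the columnar arrays, by 0.77 ± 0.29 (adjusted p = 0.133), while the lectin-only arrays spread across both. Both passed without lectin-only replicate 2 (Rpl12 adjusted p = 0.0326, Rps25 adjusted p = 0.0347), and Rps25 also without lectin-only replicate 3 (adjusted p = 0.0436). Shared probe sets that carry these symbols among others were bright and differed less, by 0.22 to 0.34 in 2 probe sets for Rpl12 and by 0.04 in 1 for Rps25. Rpl14 of the large subunit, chosen after its values were seen, differed by 0.57 ± 0.25 (adjusted p = 0.192), with GFP+ replicate 2 and columnar replicate 2 both at 9.56, and 5 shared probe sets with its symbol differed by 0.18 to 0.23.

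The stalk of the large subunit recruits elongation factors, and Rplp0 is the scaffold to which the other stalk proteins attach. Rplp0 read 13.37, 13.31 and 13.08 on the GFP+ arrays, 13.03, 13.22 and 12.69 on the lectin-only arrays and 13.00, 12.82 and 12.83 on the columnar arrays. The GFP+ arrays were above the columnar ones, and the difference of 0.37 ± 0.19 did not pass (adjusted p = 0.264). Rplp2, its acidic partner, differed by 0.07 ± 0.15 (adjusted p = 0.862). Rplp1 was read only by probe sets shared with other symbols and is not given a value.

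Among small subunit proteins, Rpsa, which is also known as the precursor of the laminin receptor, had log2 signals of 13.74, 13.65 and 13.64 on the GFP+ arrays, 13.46, 13.60 and 13.40 on the lectin-only arrays and 13.30, 13.30 and 13.35 on the columnar arrays. As deposited, the 3 gates did not overlap, in the order GFP+, lectin-only, columnar. With arrays centred on their medians or 90th percentiles, 0 members, so not Rpsa either, had lectin-only arrays wholly above the columnar arrays. The whole distance between the GFP+ and columnar means of Rpsa, as deposited, was 0.36 ± 0.15 (adjusted p = 0.162). With limma's trended and robust variance Rpsa passed in that comparison (adjusted p = 0.0095). It also passed with the mean of its probe sets (0.70, adjusted p = 0.0229), which include a dim one near background. Rps19, which is mutated in Diamond-Blackfan anaemia in humans, differed by 0.35 ± 0.19 (adjusted p = 0.290), and all its GFP+ arrays were above the columnar arrays. Rps3, which lines the entry of the messenger RNA channel, differed by 0.20 ± 0.15 (adjusted p = 0.474) and also did not overlap. Rps4x, encoded on the X chromosome, differed by 0.21 ± 0.17 (adjusted p = 0.527), and Rps27 by 0.04 ± 0.23 (adjusted p = 0.948).

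A further 4 large subunit proteins did not pass. Rpl11, which binds Mdm2 when ribosome assembly is disturbed, differed by 0.01 ± 0.19 (adjusted p = 0.984). Rpl22, an RNA-binding protein, differed by 0.15 ± 0.15 (adjusted p = 0.630). Rpl39, of the exit tunnel, differed by 0.07 ± 0.16 (adjusted p = 0.865), and Rpl41, the shortest ribosomal protein, by -0.06 ± 0.16 (adjusted p = 0.873). The 95% intervals of these 4 probe sets ended between -0.42 and 0.49. They describe the signal of probe sets near the top of the scale or, for Rpl39, of a dim one, and not the amount of message.

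Several members are paralogues that replace or accompany a core protein. Rpl7l1, the paralogue of Rpl7, read 10.52, 10.37 and 10.45 on the GFP+ arrays, 10.21, 10.22 and 10.44 on the lectin-only arrays and 9.88, 9.95 and 10.20 on the columnar arrays. Its GFP+ and columnar arrays did not overlap, and the difference of 0.44 ± 0.16 did not pass (adjusted p = 0.124). Rpl22l1, the paralogue of Rpl22, differed by 0.41 ± 0.19 (adjusted p = 0.209). Rps4l, a paralogue of Rps4x, was the one member with GFP+ arrays wholly below the columnar arrays: it read 8.48, 8.93 and 7.61 on the GFP+ arrays, 8.59, 9.58 and 8.65 on the lectin-only arrays and 9.34, 9.01 and 9.38 on the columnar arrays, a difference of -0.90 ± 0.36 (adjusted p = 0.155).

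Rps27l, a paralogue of Rps27 known as a p53 target, differed by -0.13 ± 0.15 (adjusted p = 0.703). On the same arrays 4 of 13 other p53 targets rose in the GFP+ gate and 0 fell, beside 7.32% of all genes higher, among them Phlda3 at 3.04 ± 0.31 and Sesn1 at 2.04 ± 0.33 (limma). The list as a whole was split, with 7 of the 13 positive, 6 negative and a median difference of 0.03. Leukocyte markers moved too in this comparison, with 7 of 23 higher and 1 lower, 2 higher without GFP+ replicate 3 or columnar replicate 2, and 3 to 8 higher without any other single array. Their part in the members' differences was not tested. Rpl39l, a paralogue of Rpl39 known from testis, and Rpl3l lay near or under background and differed by 0.02 ± 0.41 (adjusted p = 0.985) and 0.13 ± 0.22 (adjusted p = 0.809).

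Lectin-only cells were set against the same 3 columnar arrays, so these comparisons share arrays. Here 0 members rose and 0 fell, against 10.6% of all genes called (7.58% higher and 3.05% lower, limma), and 0 of 49 had an unadjusted p under 0.05, against 21.8%. Bright genes were called less often: of the 612 genes with a mean over 12, 2.45% passed, beside 0 of the 37 members of that range. An absolute log2 difference of 1 or more in addition left 0 members and 8.85% of all genes. With limma's trended and robust variance 0 members passed as well, against 11.5% of all genes, and 1 member had an unadjusted p under 0.05. The median log2 difference was 0.02, against 0.07 over all genes, and 32 of 49 members were positive, against 59% of all genes. Lectin-only arrays lay wholly above the columnar arrays in 2 members, Rpl7l1 and Rpsa, against 16% of all genes, and wholly below in 0, against 8.61%. Of the 23 leukocyte markers, 20 rose in the same comparison; their part in the result was not tested.

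Named members of this comparison were Rpl7l1 at 0.29 ± 0.16 (adjusted p = 0.376), Rpl22l1 at 0.32 ± 0.19 (adjusted p = 0.386) and Rps26, a protein near the messenger RNA exit, at 0.23 ± 0.17 (adjusted p = 0.534). Rpl6 differed by -0.40 ± 0.29 (adjusted p = 0.507), and by -0.02 without lectin-only replicate 3, the low array named above. The direction of the members as a group depended on the scaling: with arrays centred on their medians their median was -0.22 and 7 of 49 were positive. All genes then had a median of -0.17, and 33.1% of them were positive. Lectin-only arrays then lay wholly above the columnar arrays in 0 members, against 10.6% of all genes, and wholly below in 11. With arrays centred on their 90th percentile these counts were 0, against 14.8%, and 3. No share of all genes wholly below is given for these centrings. After the centring on medians, lectin-only replicate 3, the array with the high median, had a member median of 12.63. The other 2 lectin-only arrays had 13.07 and 13.27. Without it, and as deposited, the members' median was 0.02 and 29 of 49 were positive, against 44.1% of all genes.

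**Figure D3:**
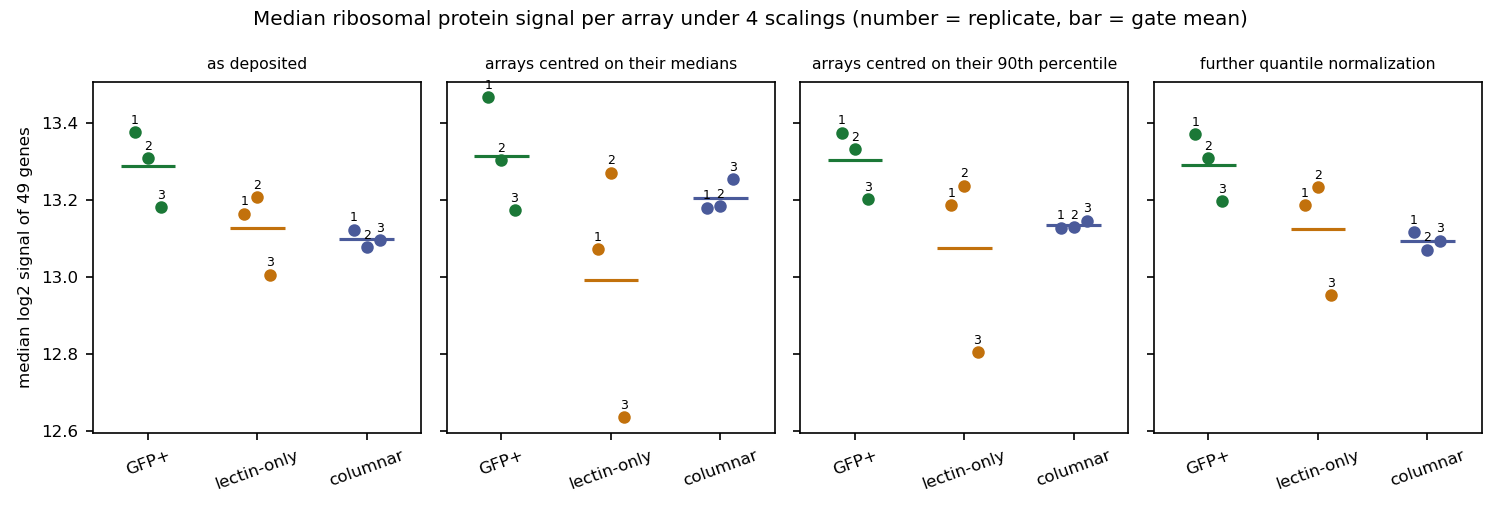
Median log2 signal of the 49 genes on each array (points, numbered by replicate) with the gate mean (bars), as deposited and under 3 other scalings. The GFP+ mean is the highest in each panel, lectin-only replicate 3 is the lowest array in each, and the lectin-only mean lies above the columnar mean as deposited and below it with arrays centred on their medians.

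The GFP+ gate was compared with the lectin-only gate to set reporter-marked lectin-binding cells against those without the reporter. Again 0 members rose and 0 fell, against 4.17% of all genes (1.01% higher and 3.16% lower, limma), and 1, Rps6, had an unadjusted p under 0.05, against 15.3% of all genes. With limma's trended and robust variance 0 members passed, against 5.24% of all genes, and 6 members had an unadjusted p under 0.05. Of the 612 genes with a mean over 12, 1.47% passed, beside 0 of the 37 members of that range. The added bound of 1 on the absolute log2 difference left 0 members and 3.74% of all genes. The mean was higher in the GFP+ gate for 43 of 49 members, against 35.9% of all genes, with a median log2 difference of 0.14, against -0.10 over all genes. GFP+ arrays lay wholly above the lectin-only arrays in 11 members, against 5.24% of all genes, and wholly below in 0, against 13.3%. Without lectin-only replicate 3 the median was 0.12 and 43 members were positive, while the median over all genes was 0.02.

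With arrays centred on their medians the members' median in this comparison was 0.30, 46 of 49 were positive and Rps6 passed (0.83, adjusted p = 0.0485). Over all genes the median was then 0.06 and 57.3% were positive. As deposited, Rpl8, which lies near the peptidyl transferase centre, differed by 0.34 ± 0.17 (adjusted p = 0.390) with GFP+ arrays wholly above, and Rps4x by 0.30 ± 0.17 (adjusted p = 0.498) likewise. Rpl12 differed by 0.72 ± 0.41 (adjusted p = 0.479) and Rpl6 by 0.51 ± 0.29 (adjusted p = 0.489), both with overlapping arrays. Leukocyte markers moved the other way: 19 of 23 were lower in the GFP+ than in the lectin-only gate, and their part in the members' offset was not tested.

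Across the 3 gates, the GFP+ gate had the highest mean in 41 of 49 members, the lectin-only gate in 3 and the columnar gate in 5, against 26.1%, 39.6% and 34.2% of all genes. The columnar gate had the lowest mean in 31 members, against 39.5% of all genes, and 29 followed the order GFP+, lectin-only, columnar, against 19.4% of all genes. These 2 counts depended on the scaling. With arrays centred on their medians both were 5 of 49, against 24.7% and 15.8% of all genes. With arrays centred on their 90th percentile they were 13 and 11, against 34.2% and 19.5%. A further quantile normalization left them at 32 and 28, against 35.3% and 20.4%. The GFP+ gate had the highest mean in 33 and 38 members under these centrings, against 29.1% and 29.2% of all genes. After the quantile normalization it did in 39, against 32.4%. Neighbouring gates in that order did not differ by the test in any member. Small and large subunits had like counts: GFP+ means were above columnar means in 20 of 23 small and 23 of 26 large subunit genes, and GFP+ arrays lay wholly above columnar arrays in 10 and 9 of them.

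Readings of RNA quality overlapped between some gates. The 18S ribosomal RNA control probe set read 11.85 to 12.56 in the GFP+ gate, 11.47 to 12.95 in the lectin-only gate and 12.92 to 13.24 in the columnar gate. The 3′ minus 5′ signal of Actb, a reading of RNA length, was 1.42 to 2.40 in the GFP+ gate, 1.69 to 2.29 in the lectin-only gate and 1.03 to 1.93 in the columnar gate. The same reading of Gapdh was 1.32 to 2.07 in the GFP+ gate, 1.60 to 1.82 in the lectin-only gate and 1.28 to 1.54 in the columnar gate. For 18S the GFP+ arrays lay wholly below the columnar arrays, and for Gapdh the lectin-only arrays lay wholly above them, while Actb overlapped between all gates. Their part in the result was not tested.

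Members with more than 1 probe set allowed each gene to be read again. The 49 genes had 105 probe sets of their own, 24 genes having several, and each was also fitted separately, a step chosen after seeing the data. In GFP+ minus columnar, 5 of the 105 were higher and 0 lower, against 8.2% of all probe sets called. In lectin-only minus columnar and in GFP+ minus lectin-only 0 of the 105 passed, against 5.68% and 1.73% of all probe sets. Besides that of Rps6 they were 2 of Rpl13a (1.12 and 0.72) and 1 each of Rps3 (1.08) and Rpsa (1.03). All 5 had mean signals under 12, where 40 of the 105 lay. The probe set of Rpsa read 3.15 to 4.58, near background.

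Over the 23 members with at least 2 probe sets above background, the median difference was 0.14 for the brightest probe sets and 0.15 for the others, and the others were higher in 13. The genes with a dimmer probe set that passed were picked by that call, so their brighter probe sets are given only as values. For Rpl13a, a large subunit protein named here after its values were seen and known in human cells from interferon-driven translational control, the probe set at a difference of 1.12 read 11.63, 11.71 and 11.53 on the GFP+ arrays, 11.14, 10.62 and 11.26 on the lectin-only arrays and 10.34, 10.68 and 10.48 on the columnar arrays. The brightest Rpl13a probe set read 13.84, 13.75 and 13.64 on the GFP+ arrays, 13.59, 13.65 and 13.59 on the lectin-only arrays and 13.68, 13.60 and 13.61 on the columnar arrays, a difference of 0.11 ± 0.15. Rps3 and Rpsa differed by 0.20 and 0.36 on their brightest probe sets. Over all 65 member probe sets with a mean over 12 the median absolute difference was 0.14 and 0 passed, against 0.44 and 4 passing among the 17 with means between 8 and 12. Over the whole array the median absolute difference was likewise smaller over 12, at 0.17, than between 8 and 12, at 0.31. Of all probe sets, 63 of 999 over 12 and 1382 of 11134 between 8 and 12 passed.

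A further 110 probe sets carry a ribosomal protein symbol together with other symbols, 102 of them pseudogenes or predicted genes only, and 28 ribosomal protein genes were read only by such probe sets, including Rpl3, Rpl5, Rpl10 and Rps27a. Of the 110, 0 passed in GFP+ minus columnar, against 8.2% of all probe sets. Means over 12 were found in 80 of them, a range where 63 of all 999 probe sets passed. The mean was higher in the GFP+ gate for 90 of the 110, against 45.5% of all probe sets. Their median difference was 0.12, against -0.04 over all probe sets. Since these probe sets can bind messages of several loci, no gene is named from them.

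**Figure D4:**
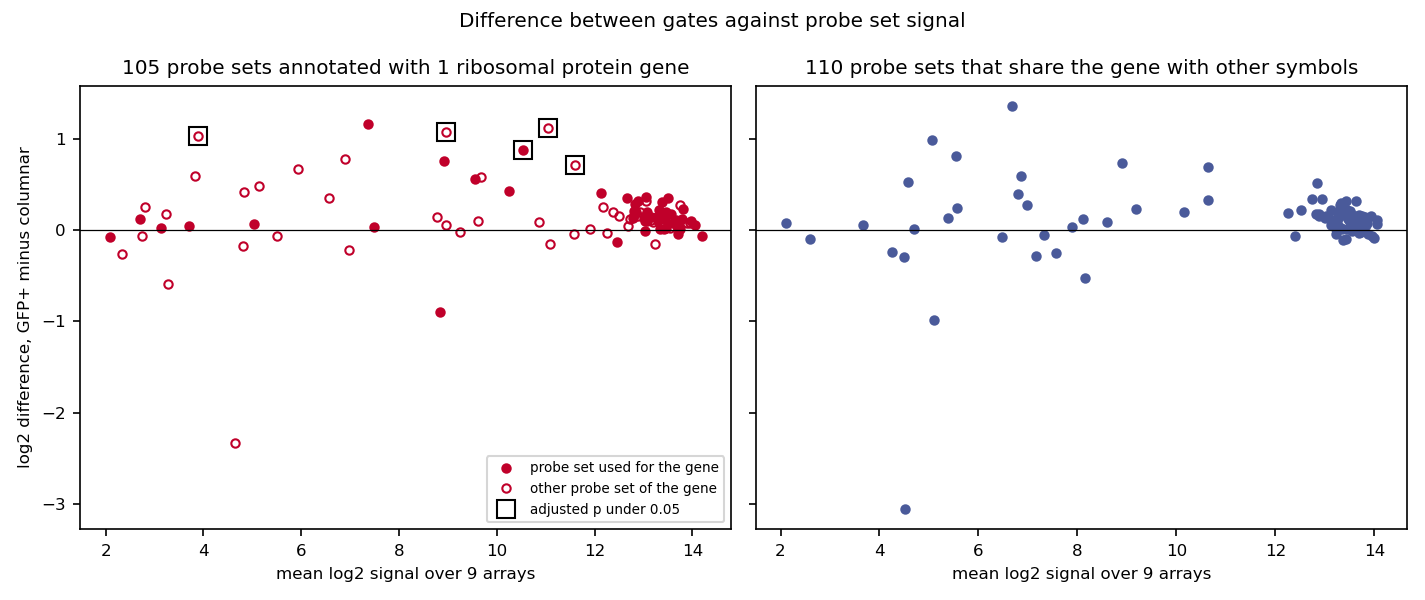
Log2 difference, GFP+ minus columnar, against mean log2 signal for the 105 probe sets of single ribosomal protein genes (left; filled points are those used for a gene, squares mark an adjusted p under 0.05) and for 110 shared probe sets (right). Probe sets with means over 12 crowd just above 0, and the 5 that passed lie further left, at lower signal.

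Genes of ribosome production were set beside the members. Of 48 measured genes of ribosome biogenesis, 3 rose in the GFP+ over the columnar gate and 0 fell (6.25% called, against 7.32% of all genes higher), and 39 were positive. The median was 0.29, and 0.17 without GFP+ replicate 1. They were the ribosome assembly chaperone Grwd1 at 1.19 ± 0.27 (adjusted p = 0.0147), Heatr1, which acts in transcription of ribosomal RNA, at 1.03 ± 0.23 (adjusted p = 0.0131) and the ribosomal RNA methyltransferase Nop2 at 0.67 ± 0.19 (adjusted p = 0.0462). The count was 0 without columnar replicate 3, 1 without GFP+ replicate 2, and 2 to 4 when any other single array was left out. Of 11 genes of RNA polymerase I and its factors, 0 passed, 2 had an unadjusted p under 0.05, beside 25.1% of all genes. The median was 0.21, but 0.10 without GFP+ replicate 1 and 0.12 without columnar replicate 2.

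Of 21 translation factors and other TOP messages, 1 rose, the poly(A) binding protein Pabpc1 at 0.64 ± 0.17 (adjusted p = 0.0319), beside 7.32% of all genes higher. The median was 0.17, but 0.09 without columnar replicate 3, 0.11 without GFP+ replicate 1 and 0.26 without GFP+ replicate 3. Its call was lost without any single GFP+ array or without columnar replicate 1 or 2 (adjusted p between 0.0604 and 0.118), and with arrays centred on their medians (adjusted p = 0.0549). Of 20 genes of cytosolic tRNA synthetases and their complex partners Aimp1 and Aimp2, 1 fell, beside 6.83% of all genes lower. It was Vars, at -0.64 ± 0.18 (adjusted p = 0.0384). The median of the 20 genes was -0.07 and lay between -0.0995 and -0.0028 with any 1 array left out. The call of Vars was lost without any single GFP+ array, columnar replicate 1 or 2 or lectin-only replicate 1 (adjusted p between 0.0529 and 0.146).

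Mitochondrial ribosomal proteins build the separate ribosome of that organelle. Of 76 measured genes 0 rose and 2 fell, Mrpl14 at -0.97 ± 0.21 (adjusted p = 0.0139) and Mrpl38 at -0.93 ± 0.21 (adjusted p = 0.0169). This compares with 6.83% of all genes lower. Of the 76, 51 were negative, and the median was -0.13. Neither passed without GFP+ replicate 3 (adjusted p of 0.0547 for Mrpl14 and 0.0687 for Mrpl38, list median -0.01) or without columnar replicate 3 (0.0569 and 0.0607), and Mrpl38 did not pass without columnar replicate 1 (0.0660). Without GFP+ replicate 1, 4 of the 76 fell and the list median was -0.26. In GFP+ minus lectin-only 37 of 76 were positive, beside 43 of 49 cytosolic members. No test of the difference between the groups of genes was made.

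Myc, the transcription factor named above, had log2 signals of 10.77, 10.57 and 10.05 on the GFP+ arrays, 8.50, 9.13 and 8.77 on the lectin-only arrays and 7.15, 7.19 and 6.51 on the columnar arrays. The 3 gates were fully separated, by 3.51 ± 0.27 between the GFP+ and columnar gates (adjusted p = 4.47e-05), 1.85 ± 0.27 between the lectin-only and columnar gates (adjusted p = 0.00215) and 1.66 ± 0.27 between the GFP+ and lectin-only gates (adjusted p = 0.00978). The members' median differences were 0.13, 0.02 and 0.14 for the same comparisons. Of 23 measured growth regulators, Myc was the only one called in GFP+ minus columnar, whereas without GFP+ replicate 1 there were 2.

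**Figure D5:**
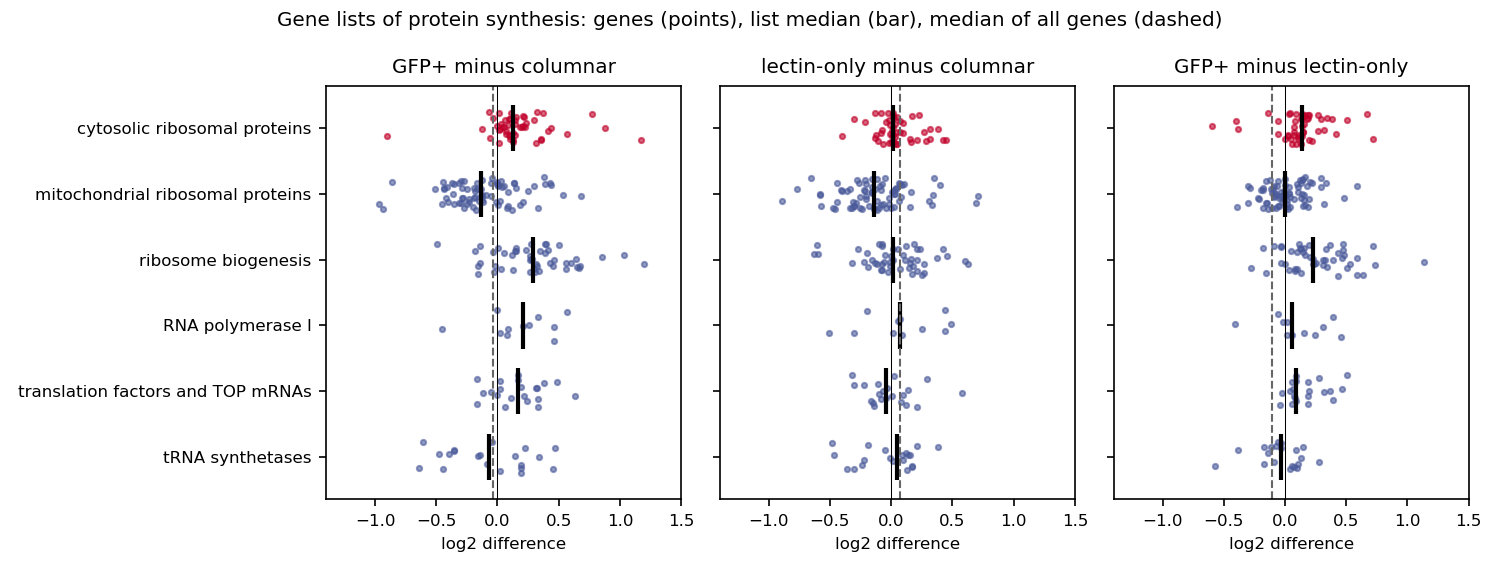
Log2 differences of genes of protein synthesis (points) in the 3 comparisons, by list, with list medians (bars) and the median of all genes (dashed line). In GFP+ minus columnar the medians of cytosolic ribosomal proteins (0.13) and ribosome biogenesis (0.29) lie right of the dashed line and that of mitochondrial ribosomal proteins (-0.13) left of it.

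Members with and without a pyrimidine run near the start were set against each other last. In GFP+ minus columnar the median difference was 0.10 for the 24 members with a run of at least 7 pyrimidines in a window around an annotated start and 0.13 for the 19 without, with 22 and 16 of them positive. In GFP+ minus lectin-only the medians were 0.10 and 0.14. The split is not one of TOP and other messages, because a run lying wholly before the annotated start also counted.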

How the data were processed

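RNA of 3 sorted gates of tracheal epithelium, with 3 biological replicates each by the labels, was extracted on RNeasy micro columns, amplified with NuGEN reagents and hybridised to Affymetrix mouse arrays. Signals per probe set were deposited on a log2 scale. They were made by the authors with RMA (background correction, quantile normalization and probe summary), per the submitters' processing notes. The software version is not given in the sources used here, nor whether all 9 arrays were normalized together. Lectin-only replicate 3 had a median of 5.44, against 4.91 to 5.16 on the other 8 arrays, so joint quantile normalization cannot be taken as given. Of 45101 probe sets, 64 controls were left out, 34945 carried 1 gene symbol in the platform annotation and 932 several. Symbols were updated through RefSeq, and each of 18193 genes was represented by its probe set of highest mean. All genes and all 9 arrays were fitted together with limma 3.58.1 in R 4.3.3 (lmFit, eBayes), p-values were adjusted by the Benjamini-Hochberg method over all genes, and adjusted values under 0.05 were called. The fit had 6 residual and 3.46 prior degrees of freedom, and 3 arrays a gate limit its precision. No low-signal filter was used: background was the 95th percentile of 77 probe sets of genes taken as silent in epithelium. Summaries used Python 3.11.15 and pandas 2.3.3, and the fit was tested on simulated data. Where fewer than 5 members passed a comparison, those of smallest p were named, with a set of members and paralogues named in every case. The members and the lists were chosen with earlier results of these data known. Alternatives were array scalings, probe set choices, a background filter, trended and robust variance, only 2 gates, a replicate block, and each array left out.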

Additional observations from a re-analysis of the deposited data

How the results depend on the processing

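Over 62 named results and 19 alternatives, 1072 of 1171 values kept their direction and their side of the threshold, 8 gained and 5 lost a call, and 86 changed sign. None of those 86 was called by limma before or after the change, all were at most 0.23 in size as reported, and 41 arose under the 3 centrings of the arrays. The count of 1 higher member in GFP+ minus columnar was 0 with arrays centred on the members' median, 2 with the mean of all probe sets of a gene, 2 without probe sets of suffix _s_at or _x_at, 2 with trended and robust variance, 3 with only the 2 gates compared, 4 with each probe set fitted on its own (chosen after seeing the data), and 0 to 3 when 1 array was left out. Rps6 was lost under the centring on members (adjusted p = 0.0869) and the mean of probe sets (adjusted p = 0.286), which includes its probe set under background. The members' median was -0.064 in GFP+ minus columnar and -0.026 in GFP+ minus lectin-only after centring on the members' median, which removes a shared offset by construction. In lectin-only minus columnar it was -0.22 with arrays centred on their medians and -0.07 on their 90th percentiles. In GFP+ minus lectin-only it was 0.30, with 1 member higher, after centring on array medians. The cause of the other changes was not tested. Deviations from the gate means correlated between -0.070 and 0.331 for same-numbered arrays of different gates. For differently numbered arrays the range was -0.472 to 0.170. The main fit used no pairing, and whether replicate numbers pair the arrays was not tested. With the replicate block the count in GFP+ minus columnar was 1, again Rps6 (0.88, adjusted p = 0.0117). Most members lie near the top of the signal scale, where differences over the whole array were smaller, and those under background are not measured.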

Other observations

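Rpl27a, a large subunit protein, had a second probe set that read 10.75 on columnar replicate 3 and 3.61 to 4.49 on the other 8 arrays. Its brightest probe set read 13.66 to 13.87 on all 9 arrays and did not show that difference. Fau, whose product is a fusion that holds the small subunit protein S30 and which the symbol rule leaves out, differed by 0.04 in GFP+ minus columnar, by -0.16 in lectin-only minus columnar and by 0.20 in GFP+ minus lectin-only, and passed in none of them (limma). The longest pyrimidine run among the member windows, 21 bases, was at the start of Rpl7a (GRCm38.p6, chr2:26910787-26910816, + strand).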
